A study of Mus musculus with 9 samples.

Results

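Lgals1, Lgals3 and Lgals9, which encode galectins, and Vim, Capg, Crip1, Ahnak, Tagln2 and Emp3, which encode cytoskeletal, scaffold and membrane proteins often linked to antigen-experienced T cells, were described in naive CD4+ T cells of the mouse. The 9 genes were found by symbol among 23849 entries of a table of FPKM, a level corrected for transcript length and library size, in which each of the symbols occurred once. They were chosen by their FPKM differences between these groups, so the values below describe them and carry no test. RNA-seq had been made after sorting for a CD4+CD62LhighCD44low phenotype and 24 h of stimulation with anti-CD3 and anti-CD28, alike in all 3 groups. The groups were Fosl2 Tg (overexpression of Fosl2), a group titled Fosl2 Ko with the genotype Fosl2fl/fl CD4-cre+, and Control (wt), with 3 libraries each. Cre under CD4 control acts in T cells from their development in the thymus onward. The promoter of the transgene, the strain, age and number of animals, and whether a group's libraries are separate animals could not be learned from the labels.

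Galectins are lectins without a signal peptide that bind beta-galactosides on glycoproteins. Outside the cell they cross-link T cell surface proteins such as CD45, CD43 and CD7, and inside it they take part in adhesion, RNA processing and survival. Capg and Tagln2 act on actin filaments, Vim forms intermediate filaments, and Ahnak is a very large scaffold that binds annexin A2 with S100A10 and takes part in calcium entry after T cell receptor engagement. Fosl2 belongs to the AP-1 transcription factors, which bind DNA as dimers at short palindromic sites.

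Estimated depth was 41.9 to 60.6 M fragments in Fosl2 Tg, 33.6 to 61.0 M in the libraries labelled Fosl2 KO and 48.1 to 53.3 M in Control. Fosl2 itself had an FPKM of 30.9, 19.2 and 24.5 in the Fosl2 Tg libraries, 19.2, 17.8 and 17.1 in the libraries labelled Fosl2 KO, and 7.77, 7.44 and 6.15 in Control. It was above Control in both other groups, which goes against the KO label, so every direction given for that group belongs to libraries with a higher gene-level Fosl2 FPKM. A gene-level value cannot tell which exons were read. The 8 CD4 T cell markers were detected in every library, with summed FPKM of 1790 to 1880 in Fosl2 Tg, 1370 to 1430 in the libraries labelled Fosl2 KO and 1530 to 1560 in Control. Cd4 itself did not follow this order, at 162 to 171 in Fosl2 Tg, 187 to 197 in the libraries labelled Fosl2 KO and 165 to 186 in Control. Fosl2 Tg library 1 stood apart. The 4 NK cell markers, of which Ncr1 was at 0 throughout, summed to 8.69 FPKM in it, almost all of it Klrd1 at 8.65, against 2.14 to 2.31 in the other Fosl2 Tg libraries, 0.353 to 0.461 in the libraries labelled Fosl2 KO and 1.09 to 1.68 in Control, and S100a8 and S100a9 were above 0 in it alone. In bulk RNA, fewer cells of a type and less RNA per cell cannot be told apart.

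The 9 genes did not move as 1 block. Lgals1, Capg, Ahnak and Lgals3 were highest in Fosl2 Tg, Lgals1 and Capg were lowest in the libraries labelled Fosl2 KO, and Tagln2 and Vim were lowest in Fosl2 Tg. Lgals9 and Emp3 differed mainly in the libraries labelled Fosl2 KO, where they were low, and Crip1 in Fosl2 Tg overlapped both other groups. By FPKM, which is per length, the order of the Control means was Tagln2, Crip1, Capg, Emp3, Lgals1, Lgals9, Vim, Ahnak and Lgals3. Crip1 and Capg did not overlap there by a small margin, with Crip1 at 91.4 to 97.2 and Capg at 82.4 to 89.3 FPKM. Emp3 at 37.7 to 47.8 overlapped Lgals1 at 36.0 to 39.8, while Lgals1 lay above Lgals9 at 33.5 to 33.9. No other neighbours in this order overlapped.

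**Figure D1:**
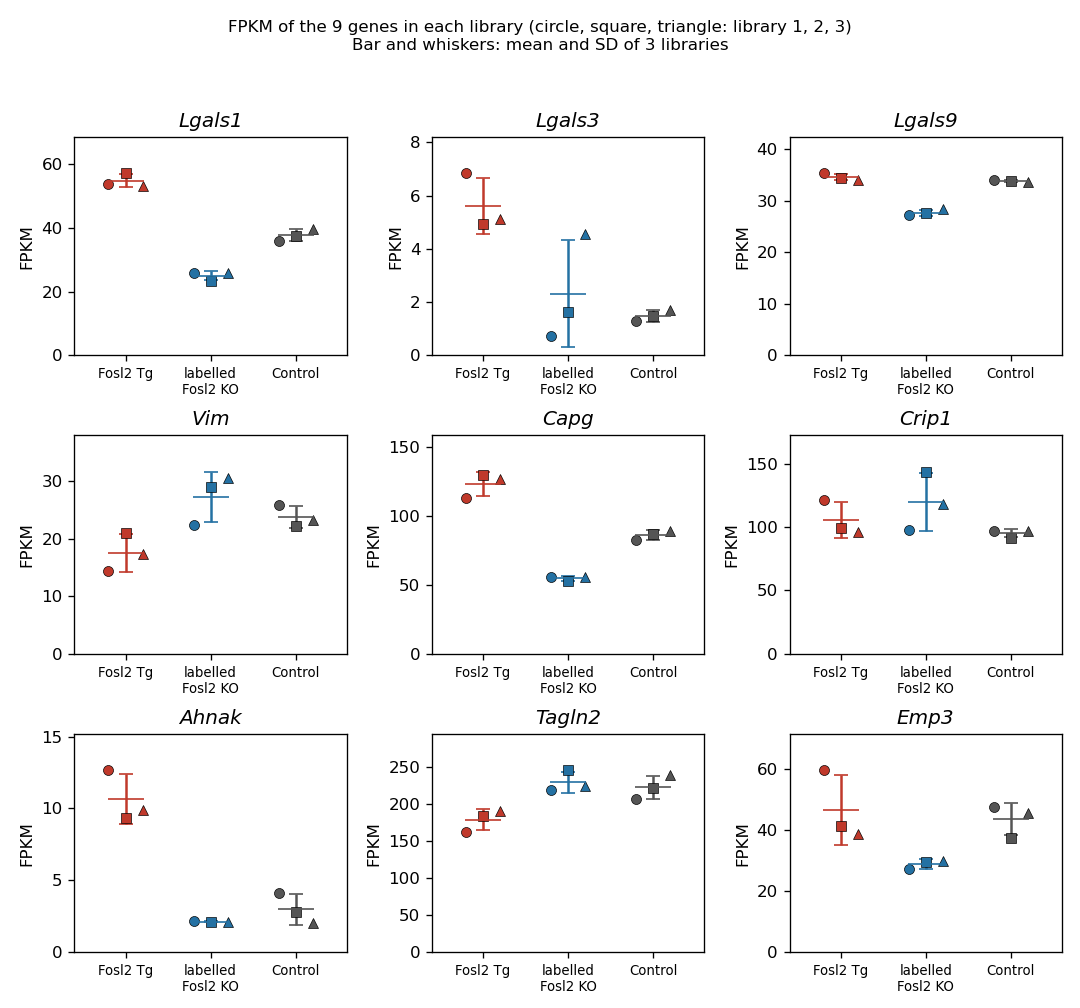
FPKM (vertical axis, from 0) of each of the 9 genes in the 3 Fosl2 Tg libraries, the 3 libraries labelled Fosl2 KO and the 3 Control libraries; points are libraries, and the bar and whiskers are the mean and SD. Lgals1 and Capg form 3 separate levels, Ahnak is high only in Fosl2 Tg, and Lgals3 has 1 library labelled Fosl2 KO, at 4.58 FPKM, close to the Fosl2 Tg libraries.

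Promoter sequences were looked up because Fosl2 binds DNA. RefSeq promoter windows on GRCm38.p6, each with 250 bases before and 50 bases after a transcription start, matched 8 of the 9 genes in 9 windows (Emp3 has a pair), with Lgals1 unmatched. The 4 sequences below are the 250 bases before the start of Lgals3 and Ahnak, the genes with the largest difference between Fosl2 Tg and Control, and of Tagln2 and Vim, which lay on the other side. Capitals mark GGGCGG or its reverse complement, and TATAAA.
Lgals3 promoter, chr14:47373610-47373859 (plus strand): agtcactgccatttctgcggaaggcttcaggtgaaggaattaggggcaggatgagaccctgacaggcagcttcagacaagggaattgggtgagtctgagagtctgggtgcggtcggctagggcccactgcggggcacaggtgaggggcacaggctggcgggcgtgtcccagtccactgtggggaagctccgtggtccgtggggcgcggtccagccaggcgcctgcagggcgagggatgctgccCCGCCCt
Ahnak promoter, chr19:8989034-8989283 (plus strand): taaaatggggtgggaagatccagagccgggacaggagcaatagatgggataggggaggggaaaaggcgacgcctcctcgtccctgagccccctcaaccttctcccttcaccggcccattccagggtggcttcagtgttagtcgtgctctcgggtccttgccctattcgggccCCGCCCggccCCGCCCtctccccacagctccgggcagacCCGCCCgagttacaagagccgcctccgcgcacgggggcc
Tagln2 promoter, chr1:172499996-172500245 (plus strand): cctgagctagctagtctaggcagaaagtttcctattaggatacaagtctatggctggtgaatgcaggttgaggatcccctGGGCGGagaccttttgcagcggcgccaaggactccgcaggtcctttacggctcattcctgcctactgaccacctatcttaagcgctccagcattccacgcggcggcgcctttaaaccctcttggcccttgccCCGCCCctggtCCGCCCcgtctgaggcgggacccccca
Vim promoter, chr2:13574061-13574310 (plus strand): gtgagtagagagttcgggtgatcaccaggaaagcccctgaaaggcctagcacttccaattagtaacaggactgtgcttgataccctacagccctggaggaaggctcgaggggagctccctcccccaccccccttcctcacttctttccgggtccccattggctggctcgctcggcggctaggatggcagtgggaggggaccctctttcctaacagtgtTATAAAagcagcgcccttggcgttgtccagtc

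The AP-1 motif TGANTCA and the related cyclic AMP response motif TGACGTCA, searched on both strands, occurred in 0 of the 9 windows of these genes, against 7.81% and 1.79% of all 32851 windows. GGGCGG, the core letters of the GC box that Sp1-type factors bind, occurred in 4 of 9 windows (Lgals3, Crip1, Ahnak and Tagln2), against 35.7% of all windows. TATAAA, the TATA box letters, occurred in 2 of 9 (Vim and 1 of the Emp3 windows), against 13.6%. None of the motifs contains another. In Vim its first base lay 32 bases before the start. Genes on both sides shared GGGCGG: it lay before the start of Lgals3 and Ahnak, which were high in Fosl2 Tg, and of Tagln2, which was low. The window of Ahnak held 18 CG pairs in the 250 bases before the start, Tagln2 14, Lgals3 and Crip1 13 each, Vim 8, Capg 7, Lgals9 3 and the Emp3 windows 3 and 1, against a median of 6 over all windows. A match describes letters and not a bound site, and the absence of one in these windows says nothing about the factor.

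Lgals1 (chr15:78926725-78930465, mm10, plus strand) encodes galectin-1, a dimeric galectin that activated T cells make and that regulatory T cells use. Its FPKM was 54.0, 57.2 and 53.3 in the Fosl2 Tg libraries, 25.9, 23.5 and 25.8 in the libraries labelled Fosl2 KO, and 36.0, 37.6 and 39.8 in Control. All Fosl2 Tg libraries lay above Control and all libraries labelled Fosl2 KO below it. The means were 54.9 ± 2.07 for Fosl2 Tg, 25.1 ± 1.34 for the libraries labelled Fosl2 KO and 37.8 ± 1.91 for Control (SD, n = 3 each). On the scale of log2(FPKM + 1), used for all differences here and compressing those of low genes, Fosl2 Tg minus Control was 0.53 ± 0.06 (SE from limma) and the libraries labelled Fosl2 KO minus Control -0.58 ± 0.06. Between the outer groups the difference was 1.10 ± 0.06, a ratio of means of 2.19. Leaving out any 1 library kept the Fosl2 Tg difference to Control between 0.49 and 0.56 and the other between -0.61 and -0.53.

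Capg (chr6:72544391-72562983, plus strand) encodes an actin filament capping protein of the gelsolin family. It had an FPKM of 113, 129.9 and 127 in the Fosl2 Tg libraries, 55.7, 52.8 and 56.2 in the libraries labelled Fosl2 KO, and 82.4, 86.9 and 89.3 in Control. As with Lgals1, the 3 groups did not overlap, with Fosl2 Tg on top and the libraries labelled Fosl2 KO at the bottom. The means were 123 ± 8.78 for Fosl2 Tg, 54.9 ± 1.81 for the libraries labelled Fosl2 KO and 86.2 ± 3.50 for Control (SD, n = 3 each). Fosl2 Tg minus Control was 0.51 ± 0.06 and the libraries labelled Fosl2 KO minus Control -0.64 ± 0.06 (log2, SE), with 1.15 ± 0.06 between Fosl2 Tg and the libraries labelled Fosl2 KO. The summed FPKM of regulatory T cell markers, all 4 of them above 0 in every library, was carried mainly by Il2ra and Ctla4, at 77.3 to 116 in Fosl2 Tg, 175 to 194 in the libraries labelled Fosl2 KO and 157 to 162 in Control. Foxp3, Il2ra and Ikzf2 were lowest in Fosl2 Tg and highest in the libraries labelled Fosl2 KO, whereas Ctla4 was below Control in both, at 19.1 to 33.7 in Fosl2 Tg, 43.8 to 56.6 in the libraries labelled Fosl2 KO and 56.9 to 60.6 in Control. The part of these markers in the Lgals1 and Capg levels was not tested.

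Lgals9 (chr11:78962979-78984924, minus strand) encodes galectin-9, a tandem-repeat galectin that binds TIM-3, the product of Havcr2. It had an FPKM of 35.3, 34.5 and 34.0 in the Fosl2 Tg libraries, 27.2, 27.5 and 28.3 in the libraries labelled Fosl2 KO, and 33.9, 33.8 and 33.5 in Control. The libraries labelled Fosl2 KO lay below all others, and the Fosl2 Tg and Control libraries were almost level. With means of 34.6 ± 0.661 for Fosl2 Tg, 27.7 ± 0.583 for the libraries labelled Fosl2 KO and 33.7 ± 0.192 for Control (SD, n = 3 each), the libraries labelled Fosl2 KO minus Control gave -0.28 ± 0.04 and Fosl2 Tg minus Control 0.04 ± 0.04 (log2, SE). It was the steadiest of the 9 genes in Control, with a coefficient of variation of 0.57%. Havcr2 stayed at 0.00643 to 0.0467 FPKM over the 9 libraries. Of the CD8 T cell markers, both above 0 in every library, Cd8b1 made up almost all of the summed FPKM of 10.7 to 12.7 in Fosl2 Tg, 6.12 to 7.49 in the libraries labelled Fosl2 KO and 11.9 to 12.8 in Control. Cd8a alone was at 0.199 to 0.258 in Fosl2 Tg, 0.212 to 0.445 in the libraries labelled Fosl2 KO and 0.407 to 0.462 in Control, and the part of these markers in the Lgals9 level was not tested.

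Lgals3 (chr14:47373860-47386167, plus strand) encodes galectin-3, the chimera-type galectin, which is abundant in macrophages and made by activated T cells. Its FPKM was 6.84, 4.93 and 5.12 in the Fosl2 Tg libraries, 0.741, 1.64 and 4.58 in the libraries labelled Fosl2 KO, and 1.28, 1.47 and 1.70 in Control. Fosl2 Tg lay above both other groups, and the libraries labelled Fosl2 KO spread across the Control range and up to the edge of the Fosl2 Tg range. The means were 5.63 ± 1.05 for Fosl2 Tg, 2.32 ± 2.01 for the libraries labelled Fosl2 KO and 1.48 ± 0.213 for Control (SD, n = 3 each). Fosl2 Tg minus Control was 1.41 ± 0.36 (log2, SE), a ratio of means of 3.79. The libraries labelled Fosl2 KO minus Control gave 0.25 ± 0.36, but -0.21 without their library 3 and 0.63 without their library 1. Fosl2 Tg minus the libraries labelled Fosl2 KO was 1.16 ± 0.36, and 1.62 or 0.78 without those same libraries.

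At these levels Lgals3 rested on about 360, 327 and 390 fragments in the Fosl2 Tg libraries, 31.3, 92.7 and 352 in the libraries labelled Fosl2 KO and 78.6, 89 and 114 in Control, all estimated from depth. Depth in the libraries labelled Fosl2 KO was 33.6, 44.9 and 61.0 M fragments, in the same order as Lgals3, and its part was not tested. Of 14 myeloid markers 12 were matched and 11 were above 0 in at least 1 library, with summed FPKM of 2.76 to 5.03 in Fosl2 Tg, 1.05 to 1.66 in the libraries labelled Fosl2 KO and 2.03 to 2.17 in Control. Cd68 and Itgam carried most of this sum. Cd68 was at 1.66 to 2.70 FPKM in Fosl2 Tg, 0.771 to 1.31 in the libraries labelled Fosl2 KO and 1.18 to 1.55 in Control. Itgam was at 0.502 to 1.06, 0.105 to 0.171 and 0.140 to 0.339 in the same order. Fcer1g and Tyrobp were highest in Control libraries, at 0.211 and 0.161. Cd14 was at 0 in all 9 libraries, and Lyz2 was at 0.0271 FPKM in Fosl2 Tg library 1 and at 0 in the others. In the library labelled Fosl2 KO with the highest Lgals3 (4.58 FPKM) the myeloid sum was 1.42, between the 1.66 and 1.05 of its group. The part of myeloid cells in the Fosl2 Tg values of Lgals3 was not tested.

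Ahnak (chr19:8989284-9076919, plus strand), the giant scaffold gene, had the largest difference of the 9 between Fosl2 Tg and the libraries labelled Fosl2 KO. Its FPKM was 12.7, 9.36 and 9.92 in the Fosl2 Tg libraries, 2.17, 2.10 and 2.10 in the libraries labelled Fosl2 KO, and 4.13, 2.82 and 2.03 in Control. Fosl2 Tg lay above all other libraries without overlap, while the libraries labelled Fosl2 KO sat inside the lower part of the Control range. The means were 10.7 ± 1.76 for Fosl2 Tg, 2.13 ± 0.0373 for the libraries labelled Fosl2 KO and 2.99 ± 1.06 for Control (SD, n = 3 each). Fosl2 Tg minus Control was 1.57 ± 0.18 (log2, SE), a ratio of means of 3.56, and Fosl2 Tg minus the libraries labelled Fosl2 KO was 1.89 ± 0.18, a ratio of 5.01. The libraries labelled Fosl2 KO minus Control gave -0.32 ± 0.18, which was -0.12 without Control library 1 and -0.50 without Control library 3. Ahnak encodes a very long transcript, so even its lowest library held about 1305 fragments.

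Tagln2 (chr1:172500246-172507375, plus strand), whose product transgelin-2 binds and stabilises actin at the immunological synapse, was the most abundant of the 9. It had an FPKM of 162, 183 and 189.8 in the Fosl2 Tg libraries, 219, 245 and 223 in the libraries labelled Fosl2 KO, and 206, 221 and 238 in Control. The Fosl2 Tg libraries lay below all others, and the remaining groups overlapped. The means were 178.5 ± 14.4 for Fosl2 Tg, 229 ± 13.9 for the libraries labelled Fosl2 KO and 222 ± 16.0 for Control (SD, n = 3 each), with Fosl2 Tg minus Control at -0.31 ± 0.08, Fosl2 Tg minus the libraries labelled Fosl2 KO at -0.36 ± 0.08, and the libraries labelled Fosl2 KO minus Control at 0.05 ± 0.08 (log2, SE). Vim (chr2:13574311-13582826, plus strand), the intermediate filament gene, had 14.4, 21.0 and 17.3 FPKM in the Fosl2 Tg libraries, 22.3, 29.0 and 30.4 in the libraries labelled Fosl2 KO, and 25.7, 22.1 and 23.3 in Control. Fosl2 Tg was again below both other groups, by a narrow gap, since its highest library at 21.0 was close to the lowest Control library at 22.1. The means were 17.6 ± 3.31 for Fosl2 Tg, 27.3 ± 4.32 for the libraries labelled Fosl2 KO and 23.7 ± 1.85 for Control (SD, n = 3 each), and the differences -0.43 ± 0.15 for Fosl2 Tg minus Control, -0.61 ± 0.15 for Fosl2 Tg minus the libraries labelled Fosl2 KO and 0.18 ± 0.15 for the libraries labelled Fosl2 KO minus Control. Without Fosl2 Tg library 1 the Vim difference to Control was -0.30, and without library 2 it was -0.56.

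Emp3 (chr7:45918023-45921426, minus strand) encodes a tetraspan membrane protein of the PMP22 family. Its FPKM was 59.7, 41.3 and 38.8 in the Fosl2 Tg libraries, 27.2, 29.8 and 29.9 in the libraries labelled Fosl2 KO, and 47.8, 37.7 and 45.7 in Control. All libraries labelled Fosl2 KO were below the rest, while Fosl2 Tg and Control overlapped. The means were 46.6 ± 11.4 for Fosl2 Tg, 29.0 ± 1.54 for the libraries labelled Fosl2 KO and 43.7 ± 5.34 for Control (SD, n = 3 each), with -0.57 ± 0.16 for the libraries labelled Fosl2 KO minus Control and 0.07 ± 0.16 for Fosl2 Tg minus Control (log2, SE). Without Fosl2 Tg library 1 the Fosl2 Tg difference to Control turned to -0.12. Crip1 (chr12:113152012-113153879, plus strand), a small LIM-domain protein gene, had 122, 99.3 and 95.8 FPKM in the Fosl2 Tg libraries, 97.3, 143 and 118 in the libraries labelled Fosl2 KO, and 97.2, 91.4 and 97.0 in Control. The libraries labelled Fosl2 KO lay above Control with 1 of them almost level with the highest Control library, and Fosl2 Tg overlapped both. The means were 106 ± 14.0 for Fosl2 Tg, 119.7 ± 23.1 for the libraries labelled Fosl2 KO and 95.2 ± 3.31 for Control (SD, n = 3 each), and the differences to Control 0.14 ± 0.14 for Fosl2 Tg and 0.31 ± 0.14 for the libraries labelled Fosl2 KO. Without Fosl2 Tg library 1 the Crip1 difference for Fosl2 Tg was 0.04, and without library 2 labelled Fosl2 KO that for the libraries so labelled was 0.17.

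Spread within groups was uneven. Fosl2 Tg library 1 lay 0.38 above its group mean for Emp3, 0.25 for Lgals3, 0.24 for Ahnak and 0.21 for Crip1 (log2), and below it for Vim (-0.26), Tagln2 (-0.13) and Capg (-0.12). This is the library with Klrd1 at 8.65 FPKM and with S100a8 and S100a9 above 0, and their part in these deviations was not tested. Fosl2 Tg libraries 2 and 3 also lay above all Control libraries, for Ahnak at 9.36 and 9.92 FPKM against 2.03 to 4.13, and for Lgals3 at 4.93 and 5.12 against 1.28 to 1.70. Their NK marker sums were 2.31 and 2.14 FPKM against 1.09 to 1.68 in Control. Their myeloid marker sums were 2.76 and 3.56 FPKM against 2.03 to 2.17 in Control. The part of these markers in the values of Ahnak and Lgals3 was not tested. Among the libraries labelled Fosl2 KO, the coefficient of variation ran from 1.75% for Ahnak to 86.5% for Lgals3.

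**Figure D2:**
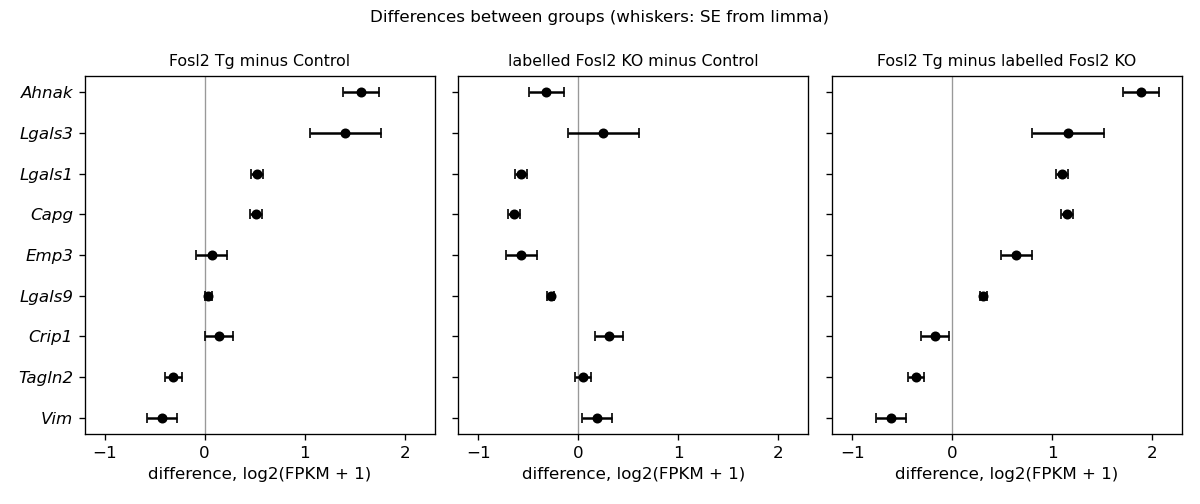
Difference of group means on the log2(FPKM + 1) scale (horizontal axis) for the 9 genes (vertical axis), for Fosl2 Tg minus Control, the libraries labelled Fosl2 KO minus Control, and Fosl2 Tg minus the libraries labelled Fosl2 KO; points are differences and whiskers the SE from limma. Ahnak at 1.57 and Lgals3 at 1.41 are farthest right in Fosl2 Tg minus Control, where Vim and Tagln2 are the genes left of 0, and Lgals1 and Capg change sides between the left and middle panels.

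By their labels, the groups set Fosl2 overexpression and the genotype Fosl2fl/fl CD4-cre+ against wild type. Over all 10340 genes whose FPKM averaged at least 1, 23.6% passed the limma threshold (Benjamini-Hochberg adjusted p under 0.05) for Fosl2 Tg against Control, 8.53% higher and 15.1% lower, and groups did not overlap for 45.2% (18.1% higher, 27.1% lower). Of the 9 genes, all of which were tested, 4 were past it on the higher side (Lgals1, Lgals3, Capg and Ahnak) and 1 on the lower (Tagln2), and 7 did not overlap, 5 higher and 2 lower. Since these values chose the genes, the counts support nothing. They fell to 3 in all, Lgals1, Capg and Ahnak, without Fosl2 Tg library 1, Control library 2 or Control library 3. The median difference of the 9 was 0.14, against -0.03 over all tested genes, and the median size regardless of sign 0.43 against 0.16.

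For the libraries labelled Fosl2 KO against Control, 4.46% of all tested genes passed (2.14% higher, 2.32% lower) and groups did not overlap for 32.8% (13.8% higher, 19.0% lower). Of the 9 genes, 0 were past the limma threshold on the higher side, also at an unadjusted p under 0.05, and 3 on the lower (Lgals1, Lgals9 and Capg), while 5 did not overlap, 1 higher and 4 lower. Their median difference was -0.28, against -0.01 over all genes. Between Fosl2 Tg and the libraries labelled Fosl2 KO, 38.1% of all genes passed (17.4% higher, 20.7% lower) and groups did not overlap for 60.4% (26.9% higher, 33.4% lower). Of the 9, 6 were higher and 2 (Vim and Tagln2) lower, with only Crip1 overlapping. The call of Lgals3 was lost without any 1 library other than Control library 3 or library 3 labelled Fosl2 KO, that of Vim without library 2 or 3 labelled Fosl2 KO, and that of Emp3 without library 1 labelled Fosl2 KO. Lgals3 also lost it without a filter on low values, with array weights and in a fit of both groups alone. The median difference of the 9 was 0.64, against -0.03 over all tested genes. Both comparisons against Control share the Control libraries. Lgals1 and Capg were past the threshold in all 3 comparisons whichever library was left out. Since these values chose both genes, that is no support.

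Rescaling moved the balance of all calls but not the directions of these genes. Higher genes made up 36.1% of the calls for Fosl2 Tg against Control as deposited, 46.5% after median-of-ratios scaling, 45.5% after quantile normalization and 55.9% after rescaling without small RNA genes. For the libraries labelled Fosl2 KO against Control they made up 47.9% as deposited and 62.8% after rescaling without small RNA genes. Lgals9 was then no longer past the threshold for the libraries labelled Fosl2 KO.

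The authors' deposited table of comparisons held all 9 genes, normalized separately from the values per library. In the authors' deposited table the log2 change of Fosl2 Tg over Control was 1.96 for Lgals3, 1.87 for Ahnak, 0.57 for Lgals1, 0.55 for Capg, -0.40 for Vim and -0.28 for Tagln2. For the group labelled Fosl2 KO over Control, the authors' deposited table gave -0.65 for Capg, -0.59 for Lgals1, -0.59 for Emp3, -0.28 for Lgals9 and 0.65 for Lgals3. The last of these is a pooled value that does not show the spread of the 3 libraries.

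Across the 9 libraries, Lgals1 and Capg had nearly the same profile. Their log2(FPKM + 1) values, each centred on its own mean, differed by a root mean square of 0.05, and each was the closest to the other of the tested genes left after setting aside predicted, Rik and small RNA genes. Next to Lgals1 came Tmsb4x, the actin monomer-binding thymosin beta-4 (0.07), and Cd2, an adhesion receptor of T cells (0.08). Next to Capg came Tmsb4x (0.08) and Dram2 (0.10). For Ahnak the closest were Evi2b (0.17), Acsbg1 (0.18) and Neurl3 (0.20), and for Lgals3, whose profile few genes approached, Agpat9 (0.39), Slc25a24 (0.41) and Mgst3 (0.41). For Emp3 they were Tnfrsf25 (0.08), Syt11 and Npc2 (0.11 each), and for Vim Ripk2, Whrn and Zfp239 (0.12 each). Within the set, Ahnak and Vim were farthest apart (1.12). These distances are over 9 libraries that share 3 group means.

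**Figure D3:**
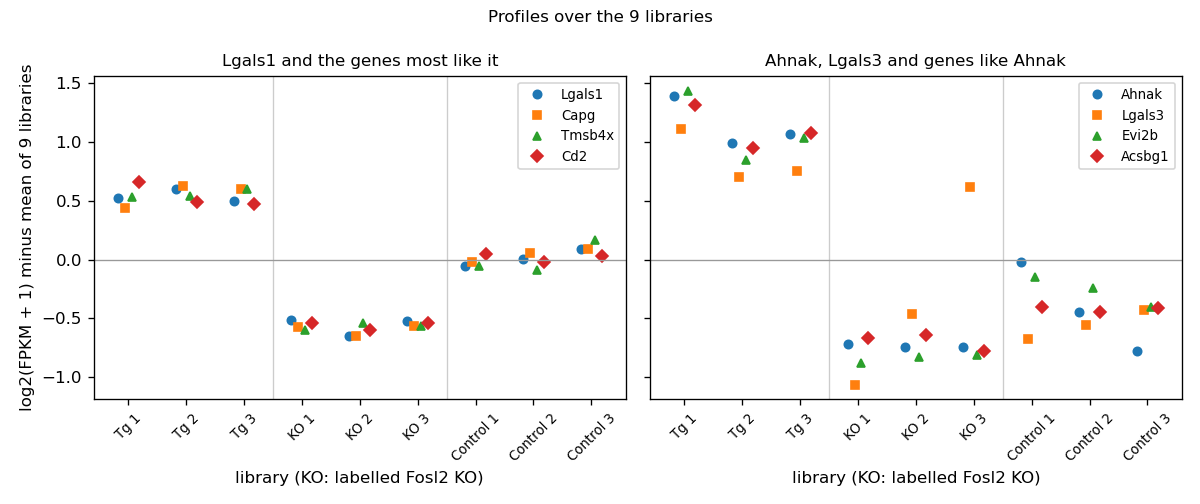
Centred log2(FPKM + 1) (vertical axis) in each of the 9 libraries (horizontal axis) for Lgals1 with Capg, Tmsb4x and Cd2 (left), and for Ahnak with Lgals3, Evi2b and Acsbg1 (right). The left genes follow 3 levels, and on the right Lgals3 leaves the others in library 3 labelled Fosl2 KO.

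Of the other galectin genes, 5 of 9 passed the filter on low FPKM. This list and those below were chosen with earlier results of these data known, so counts over them support nothing. In Fosl2 Tg against Control 2 rose and 1 fell, with 0 calls left without Control library 2 or 3. Of all tested genes 8.53% rose and 15.1% fell past the threshold there. Lgals8, a tandem-repeat galectin, had 7.27 ± 1.44 FPKM in Fosl2 Tg and 4.87 ± 0.524 in Control (SD, n = 3 each; limma adjusted p = 0.0248), and Lgals4 had 2.34 ± 0.712 in Fosl2 Tg and 1.18 ± 0.127 in Control (limma adjusted p = 0.0259), where reads of its near-identical copy Lgals6 make the value uncertain. Lgals7 was lower in Fosl2 Tg, with 2.77 ± 0.890 FPKM against 4.34 ± 0.475 in Control (limma adjusted p = 0.0414). These calls of Lgals8, Lgals4 and Lgals7 were all lost in a fit of both groups alone, and that of Lgals7 also under median of ratios scaling, without a filter on low values and without any 1 library other than Fosl2 Tg library 1. In the libraries labelled Fosl2 KO against Control, limma called 0 of 5, with 2 higher and 0 lower at an unadjusted p under 0.05, and 1 call without Fosl2 Tg library 1. Of all tested genes 2.14% rose and 2.32% fell past the adjusted threshold in that comparison. Between Fosl2 Tg and the libraries labelled Fosl2 KO, Lgals4 and Lgals8 were higher and Lgals7 and Lgalsl lower, whichever library was left out. Of all tested genes 17.4% were higher and 20.7% lower in this comparison. Lgalsl had mean FPKM of 0.840 in Fosl2 Tg, 1.58 in the libraries labelled Fosl2 KO and 1.14 in Control. It passed the filter on low FPKM only through the libraries labelled Fosl2 KO, so its call is no support.

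Of 17 genes for galectin partners and glycan enzymes 15 were tested. In Fosl2 Tg against Control 2 rose and 5 fell, and the total was 3 without Control library 2 and 4 without Control library 3. Of all tested genes 8.53% rose and 15.1% fell past the threshold there. B4galt1, which adds the galactose that galectins bind, rose to 32.2 ± 1.52 FPKM in Fosl2 Tg against 25.7 ± 1.05 in Control (log2 0.31 ± 0.05, limma adjusted p = 0.00556). Ptprc, which encodes CD45, rose to 418 ± 11 in Fosl2 Tg against 339 ± 19.4 in Control (limma adjusted p = 0.00972, a call lost in a fit of these groups alone), and Cd44, the hyaluronan receptor and memory marker, fell to 13.4 ± 1.22 in Fosl2 Tg against 19.4 ± 0.849 in Control (limma adjusted p = 0.00688). In the libraries labelled Fosl2 KO 2 rose and 1 fell, and the 2 were Tnfrsf9, a costimulatory receptor bound by galectin-9, with 138 ± 7.78 against 70.95 ± 1.10 FPKM in Control (limma adjusted p = 0.00111), and Cd44 with 29.8 ± 3.07 against 19.4 ± 0.849 FPKM in Control (limma adjusted p = 0.0087). Between Fosl2 Tg and the libraries labelled Fosl2 KO 3 were higher and 5 lower, with 4 calls without library 2 and 5 without library 3 of those labelled Fosl2 KO. Of all tested genes 17.4% were higher and 20.7% lower in this comparison. For the libraries labelled Fosl2 KO against Control the shares over all tested genes were 2.14% higher and 2.32% lower.

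Relatives of the cytoskeletal and membrane genes differed in both directions. Of 30 listed, 13 were tested, and in Fosl2 Tg against Control 4 rose and 5 fell, with 3 calls left without Control library 2 or 3. Of all tested genes 8.53% rose and 15.1% fell past the threshold there. Svil, a gelsolin relative of Capg, rose to 12.1 ± 1.03 FPKM in Fosl2 Tg against 8.57 ± 0.891 in Control (SD, n = 3 each; log2 0.46 ± 0.08, limma adjusted p = 0.00694). Gsn, which encodes gelsolin itself, rose to 9.01 ± 3.62 FPKM in Fosl2 Tg against 4.17 ± 0.712 in Control (log2 0.90 ± 0.22, limma adjusted p = 0.0255), a call lost without Control library 2 or 3 and in a fit of both groups alone. In the libraries labelled Fosl2 KO Gsn had 2.40 ± 0.313 FPKM (log2 -0.60 ± 0.22 against Control, limma adjusted p = 0.196), and Flii, the other gelsolin relative tested, gave 0.11 ± 0.06 in Fosl2 Tg against Control (limma adjusted p = 0.211). Emp1, a relative of Emp3 and 1 of the 4, had 2.01 ± 0.689 FPKM in Fosl2 Tg, 0.792 ± 0.0872 in the libraries labelled Fosl2 KO and 0.478 ± 0.0957 in Control, and passed the filter on low FPKM only through Fosl2 Tg, so its call is no support. Csrp1, a LIM-domain relative of Crip1, fell to 37.7 ± 3.02 in Fosl2 Tg against 58.8 ± 2.27 in Control (log2 -0.63 ± 0.07, limma adjusted p = 0.00105). Crip2, next to Crip1 on the chromosome, rose to 3.17 ± 0.516 FPKM in the libraries labelled Fosl2 KO against 1.76 ± 0.152 in Control (limma adjusted p = 0.0307), a call that leaving out library 2 or 3 labelled Fosl2 KO, or any 1 Control library, ended. It was the 1 gene of the list past the threshold there, with 0 lower (2 at an unadjusted p under 0.05 in limma) and 3 calls without Fosl2 Tg library 1. Between Fosl2 Tg and the libraries labelled Fosl2 KO 4 were higher and 4 lower. Of all tested genes 17.4% were higher and 20.7% lower in this comparison. For the libraries labelled Fosl2 KO against Control the shares over all tested genes were 2.14% higher and 2.32% lower.

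More actin regulators rose than fell in Fosl2 Tg. Of 60 genes 59 were tested, and against Control 18 rose and 1 fell (median 0.11, against -0.03 over all genes). Of all tested genes 8.53% rose and 15.1% fell past the threshold, and the list was chosen with earlier results known. The total of 19 was 11 without Fosl2 Tg library 3, 11 also without any single library labelled Fosl2 KO, 10 without Control library 3 and 5 without Control library 2, and 14 without Fosl2 Tg library 1. The 5 calls that held without any 1 library were Lims1, Tmsb4x, Actn1, Zyx and Lcp1. Tmsb4x had 3312 ± 90.2 FPKM in Fosl2 Tg and 2267 ± 220 in Control (SD, n = 3 each; log2 0.55 ± 0.08, limma adjusted p = 0.00428). Lims1, an adaptor of integrin adhesions, had 29.3 ± 2.89 in Fosl2 Tg and 18.6 ± 1.73 in Control (limma adjusted p = 0.0025), and Actn1, an actin cross-linker, 133 ± 19.8 in Fosl2 Tg and 90.5 ± 5.20 in Control (limma adjusted p = 0.00989). Coro1c was the gene that fell, with 46.0 ± 4.41 FPKM in Fosl2 Tg and 59.3 ± 3.41 in Control (limma adjusted p = 0.0127), a call lost without Control library 2 and in a fit of these groups alone.

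In the libraries labelled Fosl2 KO against Control, 0 actin regulators rose in limma, also at an unadjusted p under 0.05, and 7 fell, with 23 lower at an unadjusted p under 0.05 (median -0.10 against -0.01). Of all tested genes 2.14% rose and 2.32% fell past the adjusted threshold there. The 7 became 13 without Fosl2 Tg library 1, 3 without Control library 2 or without library 1 or 2 labelled Fosl2 KO, and 4 without library 3 labelled Fosl2 KO. Evl, an actin-elongating Ena/VASP protein, had 46.1 ± 1.26 FPKM in the libraries labelled Fosl2 KO and 66.3 ± 1.44 in Control (log2 -0.52 ± 0.05, limma adjusted p = 0.00128), and Rac2, a small GTPase, 129 ± 3.24 in those libraries and 167 ± 3.56 in Control (limma adjusted p = 0.00365). Between Fosl2 Tg and the libraries labelled Fosl2 KO, 36 were higher and 1 lower (median 0.22 against -0.03), and the total was 24 without library 3 of those labelled Fosl2 KO. Of all tested genes 17.4% were higher and 20.7% lower in this comparison. Zyx, the focal adhesion protein zyxin, had 87.0 ± 4.43 FPKM in Fosl2 Tg and 46.9 ± 3.49 FPKM among libraries labelled Fosl2 KO (limma adjusted p = 0.000136). Tagln2, itself an actin-binding gene, was on the opposite side from these regulators.

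Memory and effector genes moved in mixed directions. Of 28 listed genes 15 were tested, and in Fosl2 Tg against Control 7 rose and 5 fell, where 8.53% of all tested genes rose and 15.1% fell. Anxa2 and S100a10, whose products bind the Ahnak protein, were among those that rose, and so was S100a6, which passed the filter on low FPKM only through Fosl2 Tg. Anxa2 had 48.8 ± 2.47 FPKM in Fosl2 Tg and 11.2 ± 0.524 in Control (limma adjusted p = 1.91e-05), and S100a10 had 352 ± 29.1 in Fosl2 Tg and 181 ± 8.05 in Control (limma adjusted p = 0.000202). Cd44, which like Itgb1 is also on the list of galectin partners, and Nkg7, a cytotoxic granule gene, fell, Nkg7 with 0.490 ± 0.139 FPKM in Fosl2 Tg and 3.79 ± 0.0701 in Control (limma adjusted p = 1.91e-05). Gzmb, also a cytotoxic granule gene, rose instead, with 4.52 ± 1.51 FPKM in Fosl2 Tg and 1.15 ± 0.349 in Control (limma adjusted p = 0.00318). In the libraries labelled Fosl2 KO 3 rose, among them Nkg7 and Cd44, and 4 fell, among them Anxa2 and S100a10. This total of 7 was 4 without any single library labelled Fosl2 KO or without Control library 1. Of all tested genes 2.14% rose and 2.32% fell past the threshold in the libraries labelled Fosl2 KO against Control. Anxa2 had 4.42 ± 0.619 FPKM there against 11.2 ± 0.524 in Control (limma adjusted p = 0.000279), and S100a10 had 111 ± 3.36 there against 181 ± 8.05 in Control (limma adjusted p = 0.00117).

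Genes of naive T cells also differed. Of 12, all tested, 5 rose and 0 fell in Fosl2 Tg against Control (median 0.53; 9 higher and 0 lower at an unadjusted p under 0.05 in limma). With Control as the baseline 0 rose and 3 fell in the libraries labelled Fosl2 KO (median -0.43, with 1 higher and 8 lower at an unadjusted p under 0.05 in limma). Of all tested genes 8.53% rose and 15.1% fell past the threshold in Fosl2 Tg against Control. For the libraries labelled Fosl2 KO these shares were 2.14% and 2.32%. The 5 were 9 without Fosl2 Tg library 2, 3 without any single library labelled Fosl2 KO and 2 without Control library 2 or 3. The 3 were 8 without Fosl2 Tg library 1, and 1 without any single library labelled Fosl2 KO or without Control library 2 or 3. Igfbp4 had 97.6 ± 7.14 FPKM in Fosl2 Tg, 25.7 ± 2.63 in the libraries labelled Fosl2 KO and 52.2 ± 1.60 in Control (SD, n = 3 each), with limma adjusted p = 0.000742 for Fosl2 Tg against Control and 0.000503 for the other comparison against Control.

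**Figure D4:**
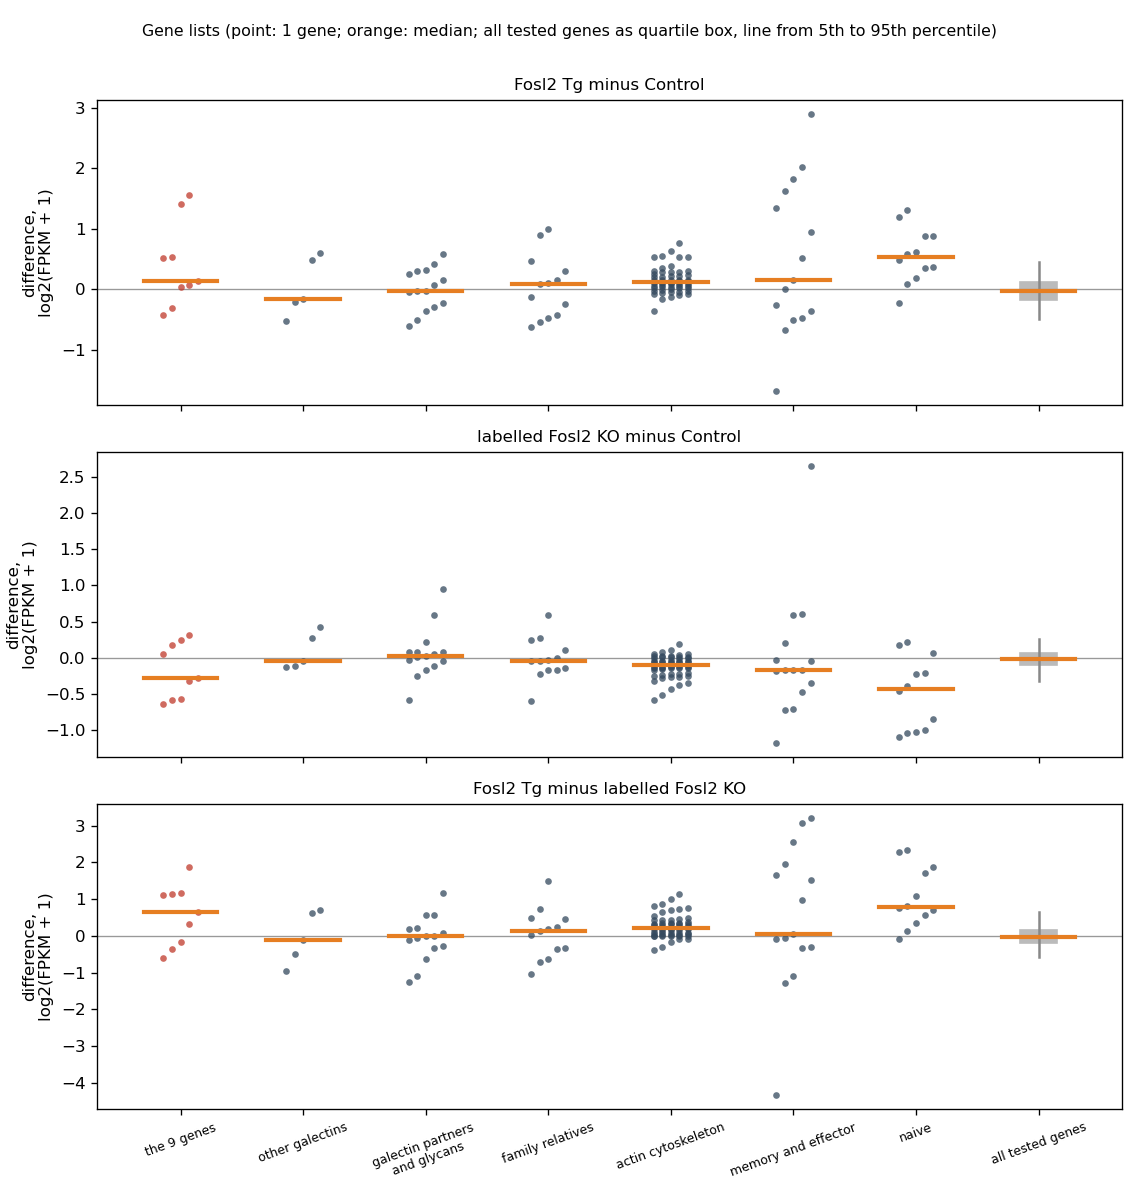
Difference on the log2(FPKM + 1) scale (vertical axis, its range set per panel) for the 9 genes, 6 gene lists and all 10340 tested genes (horizontal axis), with Fosl2 Tg minus Control on top, the libraries labelled Fosl2 KO minus Control in the middle and Fosl2 Tg minus the libraries labelled Fosl2 KO at the bottom; points are genes, orange bars medians, and the box and line give the quartiles and the 5th to 95th percentile of all genes. The actin regulators have a median of 0.11, -0.10 and 0.22 from top to bottom, and the 9 genes 0.14, -0.28 and 0.64.

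No entry of the table overlapped any of the 9 genes. Some tested neighbours within 100 kb differed in the other direction, and some in the same direction. Dlgap5, a mitotic spindle gene 1612 bases from Lgals3, was lower in Fosl2 Tg, with 4.63 FPKM in Fosl2 Tg against 8.23 in Control (log2 -0.72 ± 0.12, limma adjusted p = 0.0054). Pdxp, 7208 bases from Lgals1, was lower as well, with 8.39 FPKM in Fosl2 Tg against 13.1 in Control (log2 -0.59 ± 0.07, limma adjusted p = 0.00178). Eef1g and Asrgl1 on the sides of Ahnak gave -0.24 ± 0.09 and -0.11 ± 0.09 in Fosl2 Tg against Control and did not pass limma's threshold (adjusted p = 0.0949 and 0.37). Ksr1 beside Lgals9 and Trdmt1 beside Vim went the same way as these genes in Fosl2 Tg minus the libraries labelled Fosl2 KO. Ksr1 gave 0.36 ± 0.08 and Trdmt1 -0.29 ± 0.07 (log2, SE, limma adjusted p = 0.0106 and 0.0184).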

How the data were processed

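RNA was measured in 9 libraries of sorted and stimulated naive CD4+ T cells. Poly-A directional libraries were made, per the labels' protocols. The submitters' processing notes list TopHat, Cufflinks, Cuffdiff and the build mm10, with no versions. Settings and the strand option are not stated. The FPKM of each gene in each library, deposited by the authors, were used unchanged, and a table of their Cuffdiff comparisons (4122 entries) with FPKM and log2 changes per group, whose deposited p-values and q-values were not used. All library columns were matched by name (0 unmatched).

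FPKM is no count, so log2(FPKM + 1) of 10340 genes averaging an FPKM of at least 1 was fitted in limma 3.58.1 (R 4.3.3) with a variance trend over all 9 libraries and no covariate. P-values were adjusted over all tested genes by Benjamini-Hochberg, with 0.05 as the threshold. The fit was tested on simulated data with 200 changed genes. Because the labels do not name separate animals, p-values reflect only how these libraries varied, which may be technical variation. The 9 genes and all gene lists were chosen with earlier results of these data known. Of each list, the text takes its genes from those past the threshold with the largest differences, up to 4 per direction. Other genes are named after their values were seen or because they held whichever library was left out. The closest profiles are given for genes whose group means span at least 0.5 on the log2 scale. Depth was estimated from the steps between low FPKM values (genes with 1 annotated transcript of at least 2000 bases), since the files give no counts, and is approximate. Small RNA genes held 21.1% to 38% of a library's summed FPKM, which scales the FPKM of all other genes. Alternatives were a pseudocount of 0.1, no filter, a mean FPKM of at least 5, median-of-ratios, quantile and small-RNA-free scaling, a fit of the compared groups alone, no trend, array weights, a replicate block and leaving out each library.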

Additional observations from a re-analysis of the deposited data

How the results depend on the processing

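The files give FPKM and no counts, so precision at low levels is known only approximately, and Lgals3 is the gene it touches most. Lgals3 was not past the threshold in Fosl2 Tg against Control without a filter on low values, was left out by a mean FPKM of at least 5, and lost this call without Fosl2 Tg library 1 or 3 or any 1 Control library. Tagln2 lost it without Fosl2 Tg library 1, library 3 of those labelled Fosl2 KO, or Control library 2 or 3, and in a fit of both groups alone. Lgals9 lost its call in the libraries labelled Fosl2 KO against Control after rescaling without small RNA genes. No difference of the 9 genes changed sign in the alternatives that kept all 9 libraries. When each library was left out, those that changed sign were Emp3 (-0.12) for Fosl2 Tg and Lgals3 (-0.21) and Tagln2 (-0.01) for the libraries labelled Fosl2 KO, each against Control. TGANTCA was also in 0 of the member promoters when the 250 bases before the start alone were searched.

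Counts past the threshold ranged as follows when each library was left out: 879 to 2529 for Fosl2 Tg against Control, 176 to 1233 for the libraries labelled Fosl2 KO against Control, and 2170 to 4100 between them. For the 9 genes they were 3 to 6, 3 to 4 and 6 to 8, for actin regulators 5 to 18, 3 to 13 and 24 to 37, for memory and effector genes 9 to 13, 4 to 8 and 10 to 12, and for galectin partners 3 to 6, 2 to 4 and 4 to 9, in the same order of comparisons. A fit of the compared groups alone gave 861 calls for Fosl2 Tg (4 actin, 2 galectin partner genes) and 888 for the libraries labelled Fosl2 KO (13 actin genes). Array weights gave 5991 for Fosl2 Tg (37 actin genes) and 5313 for the libraries labelled Fosl2 KO (40 actin, 7 galectin partner, 11 memory and effector genes, 8 of the 9 genes). Actin calls in Fosl2 Tg were 30 under quantile normalization and 34 after rescaling without small RNA genes. A mean FPKM of at least 5 gave 289 calls for the libraries labelled Fosl2 KO, with fewer genes tested, and no filter gave 18 memory and effector calls between Fosl2 Tg and those libraries, with more genes tested. The cause of the others was not tested.

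Library numbers are shared between groups, but same-numbered libraries deviated together with correlations of only -0.126 to 0.098, so they are not taken as pairs. With a replicate block there were 3259 calls for Fosl2 Tg against Control, 491 for the libraries labelled Fosl2 KO against Control and 4589 between them, with 5, 3 and 8 of the 9 genes.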
